A study of Homo sapiens with 2 samples.

Results

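Long intergenic noncoding RNA genes that carry a LINC symbol were compared between HCT116 cells transfected with an siRNA against KAT7 and HCT116 cells transfected with a non-specific siRNA. The set held every row of the deposited table with LINC and a number as its whole name and a count of at least 40 when both libraries are added, which gave 98 genes. The table lists 2104 LINC rows among 60623 named genes, and 577 LINC rows had any count. The members were thus chosen by their summed count, a measured level, and not by the ratio between the libraries. HCT116 is an established line of human colon carcinoma cells, labelled wild type in both groups, and KAT7 (HBO1) is a histone acetyltransferase of the MYST family. The control group (siControl) and the knockdown group (siKAT7) had 1 library each, transfected with a lipid reagent, so no difference below has a replicate check, and no p-value was computed. The number of siRNA sequences used against KAT7 was not stated.

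Long intergenic noncoding RNAs are transcribed by RNA polymerase II outside coding genes, and most are spliced and polyadenylated like messenger RNAs. Many are kept at low levels, because the Integrator complex ends their transcription early or the nuclear exosome degrades them. Their promoters often carry the same histone marks as those of neighbouring coding genes, and a share of them starts back to back with such a gene. A LINC symbol is a provisional name for a gene whose function is mostly unknown. Some genes that began with one were later renamed after a peptide or a role was found.

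The depth was 23450331 expected counts over named genes for siControl, and 23533186 for siKAT7. Ratios are siKAT7 over siControl on the log2 scale, from library-scaled counts (CPM) after TMM scaling. Each 95% interval comes from the split of a gene's counts between the libraries and covers counting error only. KAT7 itself had 442.94 counts in siControl and 287.22 in siKAT7, a log2 ratio of -0.52 (-0.74 to -0.31). Of 12 colon epithelium markers 8 reached 40 summed counts, with KRT8 and EPCAM among them, while CDX1 was at 0 and VIL1, GPA33 and CEACAM5 stayed under 40. The fibroblast, blood and endothelial markers LUM, PTPRC, PECAM1, CDH5 and KDR were at 0 in both libraries. COL1A1, a collagen gene of fibroblasts, had 760 and 706 counts. Summed over each marker list, CPM went from 12900 to 14000 for colon epithelium (siControl, then siKAT7), stayed at 31.3 for fibroblasts, and was 1.19 and 2.51 for blood and 0.822 and 0.97 for endothelium. The part of these levels in the LINC values was not tested. In bulk RNA, fewer cells that express a gene and less of its RNA per cell cannot be told apart.

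The LINC genes were low in abundance, and a few of them held a large share of their reads. All 98 together took 0.0614% of the counts in siControl and 0.0615% in siKAT7, and the 10 with the most counts held 45.2% of that. The level per length (RPKM, CPM divided by the gene length in kilobases) had a median of 1.22 over the members as the mean of the libraries, against 5.72 for protein-coding genes of the same count floor. LINC00659 stood highest, with 49.1 RPKM in siControl and 42.6 in siKAT7. LINC01578 followed with 15.7 and 18.5 RPKM. LINC00623 had 12.6 and 15.3 RPKM and LINC01315 10.6 and 15.5. Those neighbours in the order exchange places between the libraries. At the low end LINC01588 had 0.154 RPKM in siControl and 0.247 in siKAT7. In each library 55 of the 98 members reached 1 RPKM. The lengths are those of the authors' table, which differ from the longest GENCODE 29 transcript in 40 members. For LINC00659 they are 1326 and 540 bases, and the shorter one would give a higher level. For LINC02457, at 6.17 RPKM in siControl and 8.14 in siKAT7, they are 4898 and 596 bases. The order above thus depends on the length used.

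**Figure D1:**
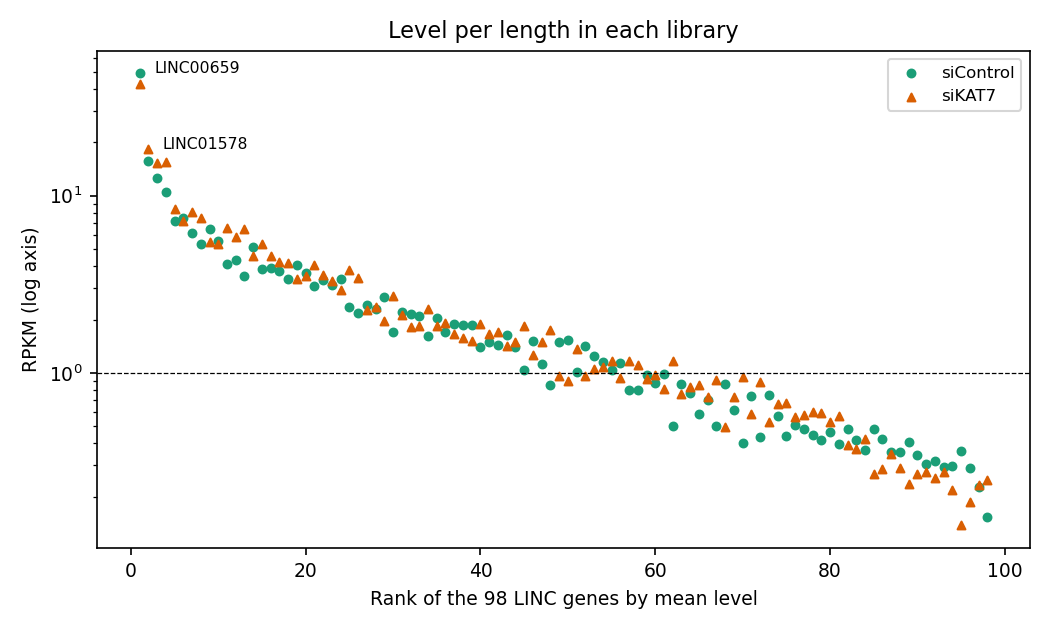
Level per length (RPKM, log axis) of the 98 LINC genes, ordered by the mean of both libraries; circles are siControl, triangles siKAT7, with 1 library each and no error bars. LINC00659 stands above the others at 49.1 and 42.6 RPKM, and the dashed line marks 1 RPKM.

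The members with the most reads differed little between the libraries. LINC00659, on chromosome 20 at 62774128 to 62775412 of GRCh38, held 1585 counts in the control library and 1280 after KAT7 siRNA. Its log2 ratio was -0.21 (-0.31 to -0.10), the lower value lying in siKAT7. LINC01578, on chromosome 15 at 92882707 to 92899701, had 1022.95 and 1124.31 counts and a log2 ratio of 0.24 (0.11 to 0.36). This RNA is now named CHASERR and is known to restrain the neighbouring chromatin remodeller gene CHD2. CHD2, named after its values were seen, had 675.2 and 844.14 counts and a log2 ratio of 0.42 (0.28 to 0.57), so both genes of the pair had their higher value in siKAT7. LINC02457, on chromosome 12, had 736 and 904 counts and a log2 ratio of 0.40 (0.26 to 0.54).

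The remaining 7 of the 10 most counted members lay between log2 ratios of -0.45 and 0.55, and their counts below are given for siControl first. LINC01315, on chromosome 22, had 328 and 449 counts (0.55, interval 0.35 to 0.76), and LINC00511, on chromosome 17 and widely studied in carcinomas, had 352 and 458 (0.48, interval 0.28 to 0.69). LINC00623 and LINC01106 had log2 ratios of 0.29 and 0.21. LINC00963 and LINC01184 had -0.09 and -0.06, with intervals that included 0. LINC02210 was the lowest of the 10, with 630.15 and 430.54 counts and a log2 ratio of -0.45 (-0.63 to -0.27). It shares exons with the readthrough model LINC02210-CRHR1, so the division of reads between them is uncertain. The sum of both models had 1150.78 and 869.59 counts and a log2 ratio of -0.30 (-0.43 to -0.17).

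Across the set, 53 of 98 members had a log2 ratio above 0 and 45 below, with a median of 0.08. All 13515 named genes of the same count floor had a median of 0.00 (interquartile range -0.20 to 0.19), against -0.24 to 0.43 for the members. Other genes annotated as lincRNA or antisense, 620 of that floor, had values close to those of the members. Their median was 0.08 (interquartile range -0.26 to 0.43), with 345 above 0. Total-count scaling moved the median of all genes by -0.11 and turned the members' median to -0.02. The summed counts of the members, 14410.12 in siControl and 14478.68 in siKAT7, gave a log2 ratio of 0.11 (0.08 to 0.14), or 0.0018 (-0.03 to 0.04) with total-count scaling. The ratio of 69 members was within 0.5 of 0, and 56 had intervals that lay wholly inside 1 in either direction. For 37 members that were not called the interval reached past 1 in size, so a 2-fold difference was not excluded at this depth.

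At least 2-fold with an interval that excluded 0, 4 of 98 members were higher in siKAT7 (4.08%) and 1 was lower (1.02%). The same rule called 1.5% of all 13515 genes higher and 1.27% lower. Most members have few counts, where ratios spread more widely, so the shares were also set side by side by count. With 40 to under 100 counts, 3 of 43 members were higher (6.98%) and 1 lower (2.33%), against 6.84% and 7.18% of 1797 genes. With 100 to under 400 counts, 1 of 33 members was higher (3.03%) and 0 lower, against 1.54% and 1.13% of 3443 genes. Of the 22 members with 400 or more counts 0 were called, against 0.326% higher and 0.0363% lower of 8275 genes. Within each range of counts the share called higher thus lay near that of all genes. Other genes annotated as lincRNA or antisense, 620 with at least 40 counts, were called higher in 5.32% and lower in 3.39%, and 12150 protein-coding genes in 0.864% and 1.01%.

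**Figure D2:**
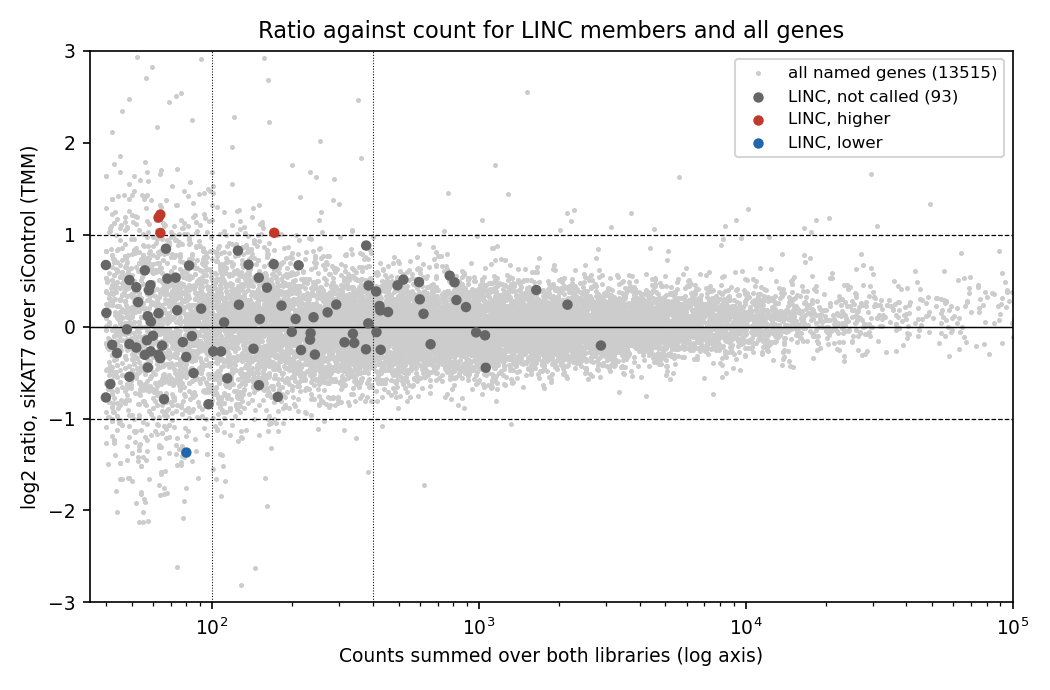
Log2 ratio, siKAT7 over siControl, against counts summed over both libraries (log axis) for the 98 LINC genes and all 13515 genes of the same count floor in grey. Dashed lines mark 2-fold and dotted lines 100 and 400 counts; 26 genes beyond 3 in size and 50 above 100000 counts are not drawn, and the LINC genes past 2-fold all lie under 400 counts.

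The 4 higher members came from separate loci. LINC02019, on chromosome 3 at 50669989 to 50672048, has a single exon in its longest transcript. It went from 20 counts with control siRNA to 44 with KAT7 siRNA and was 2.33-fold higher (log2 ratio 1.22, interval 0.45 to 2.08). LINC01615, on chromosome 6 at 169158092 to 169162924, had 20 and 43 counts and was 2.27-fold higher (1.19, interval 0.41 to 2.05). Both rest on fewer than 50 counts in either library. LINC00476, on chromosome 9 at 95759231 to 95875977 and now named ERCC6L2-AS1, had 59 and 111.97 counts, or 2.42 and 4.94 CPM (log2 ratio 1.02, interval 0.56 to 1.51). LINC01504, on the same chromosome at 72305430 to 72343210, had 22.01 and 42.02 counts (1.02, interval 0.26 to 1.85). Under total-count scaling LINC00476 and LINC01504 had 0.91 each, so 2 of the 4 stayed past 2-fold.

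LINC01694 was the 1 lower member. This gene, with 2 exons in its longest transcript, lies on chromosome 21 at 45593654 to 45603056. Its counts were 59.07 for siControl and 21 for siKAT7, which is 2.43 and 0.926 CPM. It was 2.58-fold lower (log2 ratio -1.37, interval -2.18 to -0.65), and the log2 ratio was -1.48 with total-count scaling. The authors' deposited table gives it a log2 fold change of -1.497 with an adjusted p of 1.2e-04, from a tool that is not stated, and marks it as significant. It is the 1 member so marked, among 310 genes in all. LINC02019, LINC01615, LINC00476 and LINC01504 have adjusted p-values of 0.0127, 0.0171, 4.0e-04 and 0.0475 in the authors' deposited table. Those p-values compare these 2 libraries and not the conditions. LINC02210 and LINC00659 have smaller adjusted p-values there than LINC01694 but no mark, with log2 fold changes of -0.55 and -0.31. The mark thus does not follow the adjusted p alone.

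**Figure D3:**
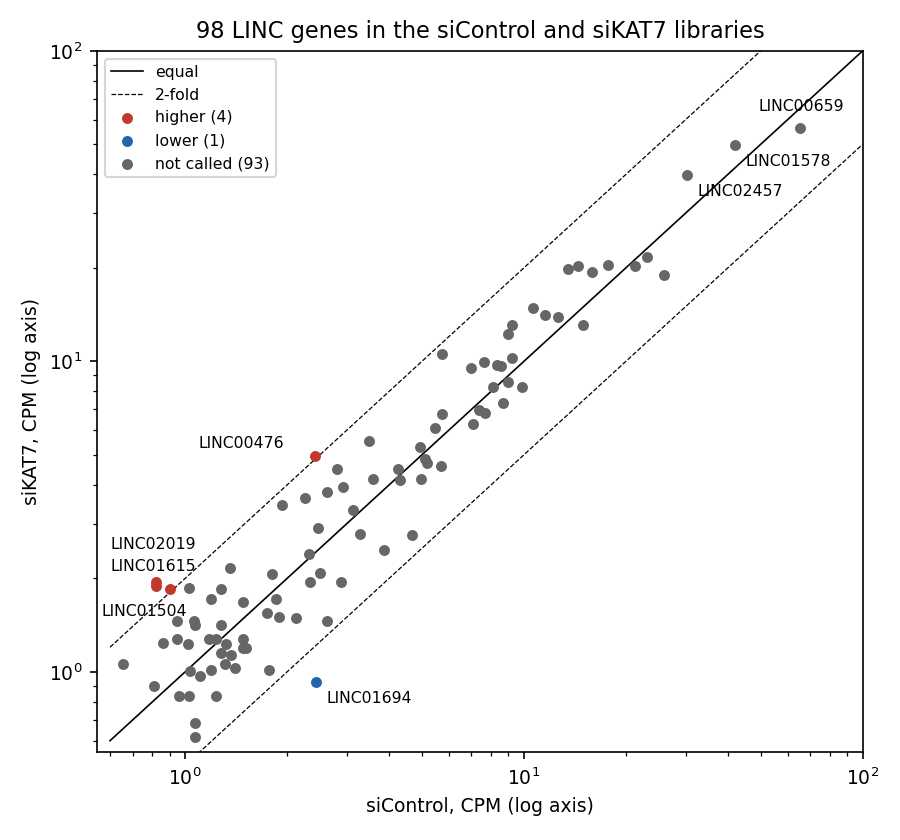
CPM of each of the 98 LINC genes in siControl (x) and siKAT7 (y), both log axes, 1 point per gene; the solid line marks equal values and the dashed lines 2-fold. The 4 genes called higher lie at or above the upper dashed line between 0.822 and 2.42 CPM in siControl, and LINC01694 lies under the lower one.

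Promoter windows from RefSeq (GRCh38.p14), from 250 bases before to 50 after the start, are shown for the 3 called members that have one and for LINC01578, since these differ in their CpG content. LINC00476 (chr9:95875928-95876227, minus strand) holds 26 CpG and LINC01578 (chr15:92883046-92883345, plus strand) 40, while LINC01504 (chr9:72305186-72305485, plus strand) holds 4 and LINC01615 (chr6:169162252-169162551, minus strand) 19. The windows of LINC01615 and LINC01578 are placed 623 and 589 bases from the GENCODE start. Capitals mark the words searched on either strand. These were TATAAA for the TATA box, CCAAT for the CCAAT box and GGGCGG for the GC box. For AP-1 the word was TGACTCA, which reads TGAGTCA on the opposite strand, and for the cyclic AMP response element (CRE) it was TGACGTCA.
LINC00476: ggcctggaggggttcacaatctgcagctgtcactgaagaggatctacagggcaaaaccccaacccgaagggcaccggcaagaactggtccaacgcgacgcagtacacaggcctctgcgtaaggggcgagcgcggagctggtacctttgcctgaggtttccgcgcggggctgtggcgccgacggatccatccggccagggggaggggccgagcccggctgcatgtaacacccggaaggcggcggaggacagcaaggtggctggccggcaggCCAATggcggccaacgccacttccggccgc
LINC01504: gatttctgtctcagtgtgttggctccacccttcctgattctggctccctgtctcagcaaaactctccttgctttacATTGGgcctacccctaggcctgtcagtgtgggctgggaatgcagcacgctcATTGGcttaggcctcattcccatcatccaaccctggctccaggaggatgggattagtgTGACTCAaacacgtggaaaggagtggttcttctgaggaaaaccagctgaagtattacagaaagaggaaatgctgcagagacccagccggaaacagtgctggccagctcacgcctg
LINC01615: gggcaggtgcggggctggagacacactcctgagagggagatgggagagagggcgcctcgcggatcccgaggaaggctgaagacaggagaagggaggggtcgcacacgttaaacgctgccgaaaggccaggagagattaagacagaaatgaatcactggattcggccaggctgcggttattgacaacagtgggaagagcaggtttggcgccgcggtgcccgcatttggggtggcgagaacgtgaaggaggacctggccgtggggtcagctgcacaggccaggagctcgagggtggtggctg
LINC01578: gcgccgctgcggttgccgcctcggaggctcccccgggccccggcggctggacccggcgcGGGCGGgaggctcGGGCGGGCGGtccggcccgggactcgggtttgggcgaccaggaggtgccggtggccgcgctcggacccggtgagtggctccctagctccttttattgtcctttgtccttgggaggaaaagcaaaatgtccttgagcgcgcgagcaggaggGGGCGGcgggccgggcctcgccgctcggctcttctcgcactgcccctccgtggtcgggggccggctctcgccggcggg

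LINC01504 has an AP-1 word, TGACTCA, and 2 CCAAT words read on the opposite strand, LINC00476 has 1 CCAAT word near its start, and no searched word was found in the window of LINC01615. A window was found for 74 members. Of these 8 (10.8%) hold the AP-1 word, against 4.95% of all 35116 windows, and 2 (2.7%) hold the CRE word, against 1.85%. The 35116 windows were not limited by count and differ in composition. Their median was 58.7% GC and 14 CpG, against 62.0% and 19.5 for the members. The 8 members with the AP-1 word had log2 ratios from -0.23 in LINC00973 to 1.02 in LINC01504, with 5 above 0 and a median of 0.23 (0.12 with total-count scaling). Both members with the CRE word had their lower value in siKAT7, LINC00265 at -0.76 and LINC00630 at -0.63, the latter with an interval that included 0 (-1.60 to 0.35). The median log2 ratio was 0.27 over the 29 members with the CCAAT box, 0.05 over the 9 with the TATA box and -0.14 over the 38 with the GC box. The windows of these groups held a median of 8, 6 and 28 CpG, and those with the AP-1 word 5.5. The part of CpG content in these medians was not tested. A member can hold several of these words. The TATA box was found in 12.2% of the members and 11.5% of all windows, the CCAAT box in 39.2% and 34.6%, and the GC box in 51.4% and 45.0%. A word in a window is a match of letters and not a bound site.

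The members' ratios differed with the CpG content of their windows. The 37 members under the median of 19.5 CpG had a median log2 ratio of 0.18 (0.07 with total-count scaling), and the 37 at or above it had -0.08 (-0.18). Among all named genes of the same floor, the 2837 under that limit had 0.01 and the 7070 at or above it -0.02. Gene length moved with the ratio as well: Spearman's rho across the members was -0.195, and -0.193 across all 13515 genes, where points share both libraries. The part of base composition and length in the members' ratios was not tested.

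With a limit of 1.5-fold, 11 members were higher (11.2%, against 4.0% of all genes) and 5 lower (5.1%, against 4.05%). The 620 other lincRNA and antisense genes had 11.8% higher and 7.58% lower by the same rule, shares close to or above those of the LINC genes. Between 100 and 400 counts the higher ones were 6 of 33 (18.2%, against 6.3% of genes with such counts), and between 40 and 100 counts 5 of 43 (11.6%, against 11.6%). On the lower side it was 2 of 33 (6.06%, against 7.46%) and 3 of 43 (6.98%, against 12.1%). At 400 or more counts 0 of 22 members passed, against 1.39% of genes higher and 0.87% lower. LINC00513, on chromosome 7, had 139 counts in the control and 239 after KAT7 siRNA (log2 ratio 0.88, interval 0.58 to 1.20), the best counted of the 11. LINC01554 had 24.95 and 42.2 counts (0.85, interval 0.10 to 1.63). LINC00431, LINC01589 and LINC00243 had log2 ratios of 0.68, 0.67 and 0.67. On the lower side LINC00265, also on chromosome 7, had 114.06 and 62.37 counts (-0.76, interval -1.25 to -0.32), and LINC00641 64 and 33 (-0.84, interval -1.51 to -0.23). LINC00957 had 93.78 and 56 counts, a log2 ratio of -0.64.

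The 22 members with 400 or more counts had narrow intervals. Their median log2 ratio was 0.22, with 15 above 0 (68.2%) and 7 below, while the 8275 genes of such counts had a median of 0.00, with 4139 above 0. With total-count scaling the medians were 0.11 and -0.11. The values ran from -0.45 in LINC02210 to 0.55 in LINC01315. LINC00869, LINC01002, LINC00662, LINC00857 and LINC01234 had 0.51, 0.48, 0.45, 0.38 and 0.30. LINC00339 and LINC02693 had -0.25 and -0.19. The intervals of 13 of the 22 excluded 0 (59.1%), against 55.3% of genes with such counts.

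**Figure D4:**
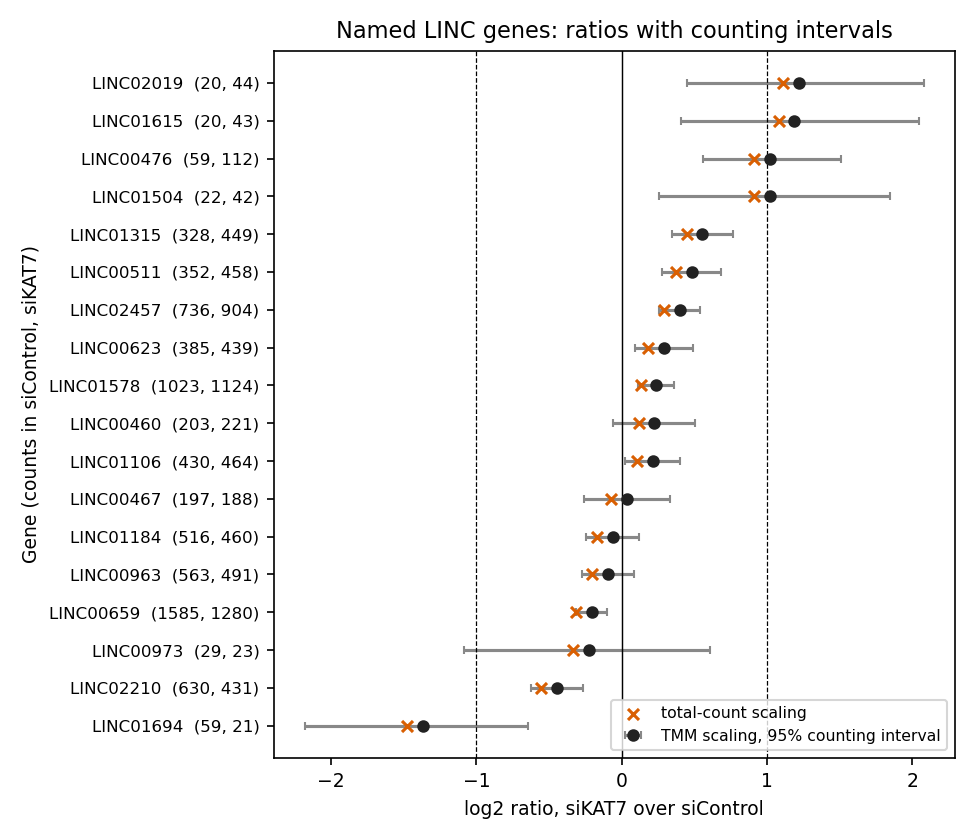
Log2 ratios of 18 named LINC genes: points with bars are TMM-scaled ratios with 95% counting intervals, crosses the same under total-count scaling, and the counts in siControl and siKAT7 stand beside each symbol. LINC02019, with 20 and 44 counts, has a bar from 0.45 to 2.08, and LINC01578, with over 1000 in each library, from 0.11 to 0.36.

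Coding neighbours were compared with the members beside them. The nearest coding start lay at a median of 37628 bases, and 15 members had one within 1000 bases, 9 of them back to back on opposite strands. LINC01135 starts 801 bases from JUN, which encodes an AP-1 subunit, on chromosome 1. JUN had 10404 counts in the control and 20656 after KAT7 siRNA (log2 ratio 1.09, interval 1.06 to 1.13), while LINC01135 had 31 and 32 (0.15, interval -0.61 to 0.91). The intervals of the pair do not overlap.

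LINC01137 lies 141 bases from ZC3H12A, whose product Regnase-1 cleaves inflammatory messenger RNAs. LINC01137 had 47 and 78 counts (log2 ratio 0.83, interval 0.29 to 1.39) and ZC3H12A 522 and 669 (0.46, interval 0.29 to 0.63), so both were higher in siKAT7. LINC00476 and the repair gene ERCC6L2 overlap at their starts, which are 276 bases apart. ERCC6L2 had 50 and 54.03 counts (0.21, interval -0.37 to 0.80) beside the 59 and 111.97 of LINC00476, and strand was not stated, so reads of their shared stretch cannot be told apart. Their summed counts gave 0.71 (0.35 to 1.07).

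LINC02340 starts 21 bases from the ribosomal protein gene RPL21, and both had their higher value in siKAT7. LINC02340 had 33 and 49 counts (0.66, interval 0.01 to 1.36) and RPL21 7735.28 and 8060.62 (0.16, interval 0.12 to 0.21). In the close pairs that follow, the interval of the LINC gene included 0. LINC01184 and SLC12A2, which encodes a sodium, potassium and chloride transporter, had -0.06 and -0.17. LINC01089 and the histone methyltransferase gene SETD1B had 0.11 and 0.01, and LINC00205 and POFUT2 had -0.08 and 0.01. Exons of LINC01089 also overlap exons of another coding gene on the same strand, RHOF, which had 6123.01 and 6140.55 counts (0.11). LINC02356 had -0.27 (-1.04 to 0.54) beside PHETA1 at 0.50 (0.31 to 0.69), and LINC01547 had -0.34 (-1.12 to 0.40) beside FAM207A at 0.29 (0.19 to 0.39). LINC01011 shares exons with NQO2, a quinone reductase gene, and had -0.51 (-1.18 to 0.14) against 0.26 (0.17 to 0.36). Over the 19 members with a neighbour of at least 40 counts within 10000 bases, 12 had the same sign as the neighbour. Over all 65 with such a neighbour at any distance it was 37. Spearman's rho between member and neighbour was 0.256 over the 19 and -0.004 over the 65, where points share both libraries. The 12 include LINC00476 with ERCC6L2, LINC00337 with ICMT, and LINC02210 with its readthrough model LINC02210-CRHR1, pairs whose exons overlap.

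**Figure D5:**
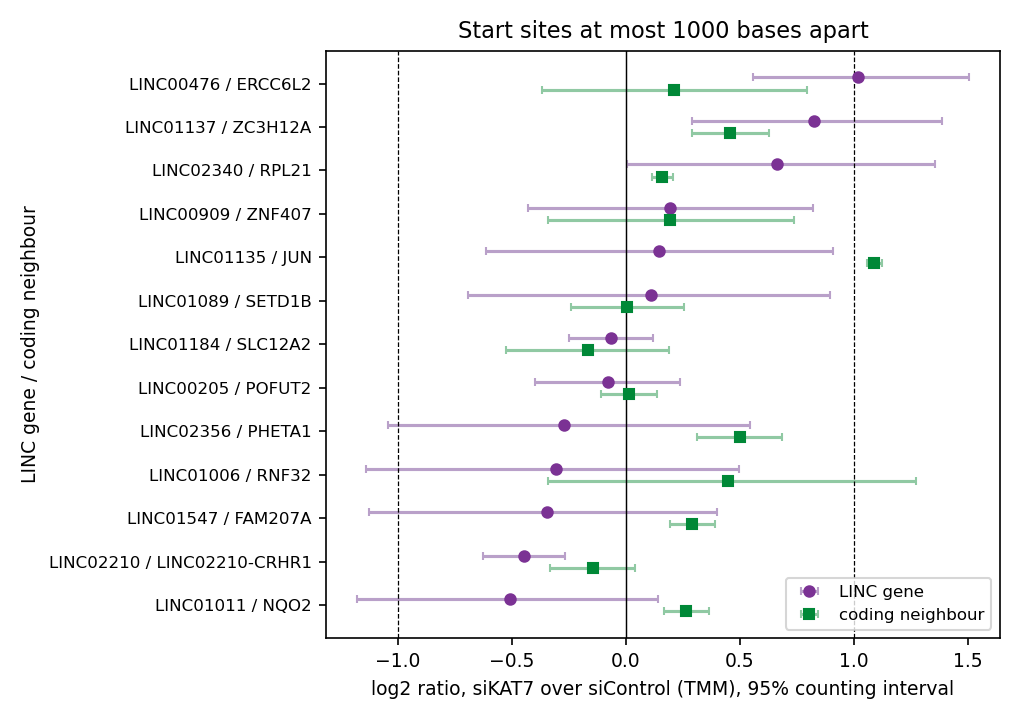
Log2 ratios with 95% counting intervals of 13 LINC genes (circles) and the coding genes that start within 1000 bases of them (squares), drawn where the neighbour had at least 40 counts. JUN at 1.09 lies to the right of LINC01135 at 0.15, and LINC00476 at 1.02 lies to the right of ERCC6L2 at 0.21. LINC02210 is drawn beside its own readthrough model, LINC02210-CRHR1.

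The neighbours of the other called members lay farther away. LINC02019 is 5252 bases from DOCK3, a regulator of RAC GTPases with 121 and 120 counts (0.09). LINC01504 is 59805 bases from ZFAND5 (0.06), and LINC01694 is 49243 bases from the folate carrier gene SLC19A1, which had a log2 ratio of -0.20 (-0.37 to -0.04). LINC01615 is 91120 bases from THBS2, a thrombospondin gene with 3 counts in siControl and 0 in siKAT7, too few to compare. LINC00659, the most counted member, is 21041 bases from MRGBP, a subunit gene of the acetyltransferase complex NuA4, which had 0.05 (-0.02 to 0.12). LINC02457 is 30247 bases from MAP1LC3B2, which had 70.36 and 37.87 counts and a log2 ratio of -0.78 (-1.39 to -0.19), opposite in sign to the 0.40 of LINC02457. LINC01315 at 0.55 lies 25620 bases from the transcription regulator gene TCF20 at -0.19 (-0.29 to -0.09), and LINC00511 at 0.48 lies 452240 bases from the zinc transporter gene SLC39A11 at -0.14. The nearest to LINC00963 was NTMT1 at 0.14, and PPIAL4A beside LINC00623 and LIMS4 beside LINC01106 were at 0 counts in both libraries.

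The annotation of the members was mixed. In GENCODE 29, 74 of the 98 are lincRNA genes, 11 processed transcripts, 3 antisense genes and 2 bidirectional promoter RNAs, 7 are transcribed pseudogenes of which 1 is unitary, and LINC02693 is listed as protein-coding. A median of 3 exons and at most 12 was found in the longest transcript. In 14 members that transcript had a single exon, though other transcripts of the same gene can have more. The span of 15 members overlaps a coding gene and exons of 11 overlap coding exons, 6 of them on the opposite strand. The 47 members with counts that were not whole numbers in both libraries had a median log2 ratio of -0.03, against 0.15 for the 51 with whole counts. A newer symbol was found for 9 members, among them CHASERR, ZC3H12A-DT and ERCC6L2-AS1.

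LINC genes with a known product or inducer were looked up from a list. Most that encode small proteins stand in the table under newer names and are not members: MTLN, a mitochondrial peptide gene once called LINC00116, had 684 and 831 counts (log2 ratio 0.38), SMIM26 1162 and 1291.85 (0.25), and NBDY, whose peptide binds the decapping complex, 833 and 847 (0.13). BRD3OS, once LINC00094, had 558.49 and 382.36 counts (-0.44, interval -0.64 to -0.25). Of 8 such genes found, 5 had at least 40 counts, and 0 of these passed the 1.5-fold rule with an interval that excluded 0. The rule called 8.05% of all genes in either direction, and 2.26% of those with 400 or more counts, the range of these 5. So few genes cannot be told from either share. Among renamed noncoding genes NORAD, which binds PUMILIO proteins, had 1199.97 and 1095.99 counts (-0.03), and CYTOR 890.77 and 1160.03 (0.48). LINC00467 had 196.94 and 188 counts (0.03), LINC00460 203 and 221 (0.22, interval -0.06 to 0.51), and LINC00973, reported to be drug-inducible in colon cancer cells, 29 and 23 (-0.23, interval -1.09 to 0.61). PURPL, an RNA induced by p53 and once called LINC01021, had 5 and 6 counts.

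A list of 26 well-known long noncoding RNAs, which holds LINC01578 as CHASERR and again NORAD and CYTOR, had a median log2 ratio of -0.03 over the 19 with at least 40 counts, with 9 above 0. LINC-PINT, whose name falls outside the rule for LINC symbols, was the 1 of these 19 that passed the 1.5-fold rule. It had 30.93 counts in siControl and 9.91 in siKAT7 (-1.495, interval -2.72 to -0.46). The same rule called 4.05% of all genes lower, and 12.1% of those with 40 to under 100 counts, the range of LINC-PINT. FTX, a noncoding RNA gene of the X inactivation centre, had 30.05 and 15.24 counts and a log2 ratio of -0.86, with an interval that included 0 (-1.90 to 0.04). MALAT1 and NEAT1, abundant nuclear RNAs, had 0.14 and -0.14, each with an interval that included 0.

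Genes that limit such RNAs were described in the same way. Of 13 nuclear exosome genes 0 passed the 1.5-fold rule, and their median was 0.00, with MPHOSPH6 lowest at -0.47. That rule called 8.05% of all genes in either direction. It called 2.26% of genes with 400 or more counts, the range of most of these 13. Integrator genes had a median of -0.14 over 14 (-0.25 with total-count scaling), with 5 above 0, and 0 passed the 1.5-fold rule. INTS7 stood highest on few counts, with 32.39 and 46 and a log2 ratio of 0.60 whose interval included 0 (-0.06 to 1.32). INTS1, a scaffold subunit with 7784 and 5976 counts, had -0.28 (-0.33 to -0.23), and INTS10 and INTS14 had -0.37 and -0.38. Of 6 exosome adaptor genes 1 passed the 1.5-fold rule, PABPN1, a nuclear poly(A) binding protein gene with 700.38 counts in siControl and 1573.37 in siKAT7 (log2 ratio 1.27, interval 1.14 to 1.40). PABPN1 shares exons with the readthrough model BCL2L2-PABPN1, which had 3330.59 and 2889.98 counts, and their sum had a log2 ratio of 0.25 (0.19 to 0.31).

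The count limit of 40 falls among genes with wide intervals. Just inside it, LINC01588 had 16 and 24 counts, LINC01366 26 and 14, and LINC00392 19.72 and 20.43. Just outside it, LINC02449 had 28.02 and 11.15 counts, LINC02604 30 and 9, and LINC02458 20 and 19. The lowest count of any member in a library was 14.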

How the data were processed

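RNA-seq of 1 siControl and 1 siKAT7 library was used. The authors deposited expected counts per gene; per the submitters' processing notes, the tool was RSEM 1.3.3 and the build GRCh38.p13. Aligner, annotation release, strand setting and RNA selection were not stated. The deposited table repeats both count columns with 0 differing cells, so each was used once. Its 331 unnamed rows, 1.11% of counts in siControl and 1.67% in siKAT7, were left out. A second table of the authors' own comparison gives a deposited fold ratio, its log2, and p-values whose tool is not stated.

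Expected counts were rounded for scaling with the TMM factors of edgeR 4.0.16 in R 4.3.3 (1.04 for siControl, 0.964 for siKAT7). Log2 ratios used a prior count of 0.5, and exact Clopper-Pearson 95% intervals came from each gene's split of counts. These cover counting error only, since each group has 1 library. PCR copies were not marked by molecular identifiers and could make the intervals too narrow. RPKM used the deposited gene lengths. Calls needed a 2-fold ratio and an interval without 0. The procedure was tested on simulated counts. GENCODE 29 on GRCh38 gave types, positions and neighbours for all 98 members. Promoter windows came from RefSeq.

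Named genes were the members past 2-fold, the 10 with the most counts, their nearest coding neighbours, listed genes and rows beside the count limit. Members named past 1.5-fold or with 400 or more counts, close pairs, and list members under 1.5-fold were added after their values were seen. Members and lists were chosen with earlier results of these data known. Alternatives were total-count scaling, DESeq2 1.42.0 size factors, the authors' folds, a prior count of 5, other fold, interval and count limits, and subsets of members.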

Additional observations from a re-analysis of the deposited data

How the results depend on the processing

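No paired analysis was possible because each group has 1 library, and for the same reason no library could be left out. The 4 of 98 members called higher became 2 with total-count scaling, with the authors' folds and with a prior count of 5. They became 2 of 51 with whole counts only and 11 of 98 at 1.5-fold. With at least 100 counts 1 of 55 was called higher, and with at least 20 counts 15 of 164. The 1 called lower became 5 of 98 at 1.5-fold and 3 of 164 with at least 20 counts. It became 0 of 55 with at least 100 counts and 0 of 51 with whole counts only. LINC01615, LINC02019 and LINC01694 were called under each of the 3 other scalings or folds, while LINC00476 and LINC01504 fell under 2-fold with 2 of them. The members' median of 0.08 was -0.0238 with total-count scaling and -0.0239 with the authors' folds. The ratio of summed counts, 0.11, was 0.0018 with total-count scaling. Over all 13515 genes, 203 called higher and 171 lower became 541 and 547 at 1.5-fold. They became 152 and 224 with total-count scaling, 154 and 233 with the authors' folds, and 153 and 126 with a prior count of 5. With at least 100 counts 80 and 42 genes were called, and with at least 20 counts 373 and 304. No share of all genes was computed for these count limits or for whole counts only. The members' counts there therefore have no share to be set against, and ratios spread more widely at low counts. Of 72 values for 18 single members under 4 alternatives, 66 stayed on the same side of the 2-fold rule and 6, those of LINC00476 and LINC01504, no longer passed it. The ratio of summed counts could not be taken from the authors' folds. Depth limits the result for the 43 members under 100 counts, whose intervals had a median width of 1.59 on the log2 scale, against 0.46 with at least 400 counts.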
